A study of Mus musculus with 6 samples.

Results

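The classic activated targets of EWS-FLI1, 8 genes named in studies of human Ewing sarcoma, were followed in mouse Ewing sarcoma cells: Sox2, Nkx2-2, Gli1, Id2, Nr0b1, Igf1, Cav1 and Prkcb. Every ChIP-seq peak lying on the mm9 span of one of the 8 genes, or within 50 kb of it, was taken from the 5 peak lists, which gave 58 of 76477 peaks. The windows, each a span with its flanks, are 104 to 445 kb long and add up to 1.297 Mb. The spans are rounded positions and not transcript models, and no annotation of mm9 was used. The rule names genes and uses no peak height or mark, but the genes were chosen with earlier results of these data known.

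The cells are ES48 and ES49, lines of Ewing sarcoma induced by EWS-FLI1 in mice of the Balb/c background, grown in serum-containing medium without treatment. The groups are ES48 EWS-FLI1, ES49 EWS-FLI1, ES48 H3K27ac, ES49 H3K27ac and ES49 H3K27me3, and EWS-FLI1 was precipitated with a FLAG antibody. Each group is 1 library, with no replicate, so no difference between the lines was tested and each value below describes the library it comes from. Both lines carry the fusion, so no group lacks it, and what drives its expression is not given in the sources used here. The ES49 input library was not used here. The lists hold peaks and scores without read counts, so depth is unknown. The lists hold no transcript levels either.

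EWS-FLI1 joins the amino-terminal part of EWSR1 to the ETS DNA-binding domain of FLI1. In human Ewing sarcoma it binds repeats of the motif GGAA, where it opens enhancers, and lone ETS sites. Acetylation of lysine 27 on histone H3 (H3K27ac) marks active promoters and enhancers. Trimethylation of the same residue (H3K27me3) is laid down by Polycomb repressive complex 2, and a given histone tail carries only one of these marks at this lysine. Among the 8 genes, Sox2 encodes an HMG-box factor of stem cells, Nkx2-2 a homeodomain factor, Gli1 the zinc-finger effector of Hedgehog signalling, Id2 an inhibitor that pairs with basic helix-loop-helix factors, and Nr0b1 the orphan nuclear receptor DAX1. Igf1 encodes the ligand of the IGF1 receptor, Cav1 the main coat protein of caveolae and Prkcb protein kinase C beta.

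The RefSeq promoters of 5 of the genes are shown because a histone peak lay on or beside the 5′ end of their spans. Each is the 250 bases before the annotated start, 5′ to 3′ on the gene's strand, from build GRCm38.p6, with GGAA and its complement TTCC in capitals. The positions are chr3:34649745-34649994 on the plus strand for Sox2, chr2:147186403-147186652 on the minus strand for Nkx2-2, chr12:25096093-25096342 on the minus strand for Id2, chr10:87860861-87861110 on the plus strand for Igf1 and chr6:17306085-17306334 on the plus strand for the first of the 2 Cav1 entries. The peaks are in mm9, so they were not placed on these bases.
Sox2: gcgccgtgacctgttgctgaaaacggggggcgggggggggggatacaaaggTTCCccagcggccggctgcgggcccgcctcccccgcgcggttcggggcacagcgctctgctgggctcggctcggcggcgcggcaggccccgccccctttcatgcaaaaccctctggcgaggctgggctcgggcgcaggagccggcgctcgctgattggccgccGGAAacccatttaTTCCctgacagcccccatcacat
Nkx2-2: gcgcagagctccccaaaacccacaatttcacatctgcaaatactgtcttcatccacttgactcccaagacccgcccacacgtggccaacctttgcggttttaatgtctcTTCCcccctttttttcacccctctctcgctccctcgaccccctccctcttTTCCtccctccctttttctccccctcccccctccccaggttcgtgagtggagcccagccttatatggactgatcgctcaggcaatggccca
Id2: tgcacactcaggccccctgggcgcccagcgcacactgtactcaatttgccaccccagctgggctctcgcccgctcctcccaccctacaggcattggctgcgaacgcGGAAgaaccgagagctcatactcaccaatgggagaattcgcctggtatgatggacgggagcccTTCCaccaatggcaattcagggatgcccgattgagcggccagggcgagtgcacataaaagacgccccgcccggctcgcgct
Igf1: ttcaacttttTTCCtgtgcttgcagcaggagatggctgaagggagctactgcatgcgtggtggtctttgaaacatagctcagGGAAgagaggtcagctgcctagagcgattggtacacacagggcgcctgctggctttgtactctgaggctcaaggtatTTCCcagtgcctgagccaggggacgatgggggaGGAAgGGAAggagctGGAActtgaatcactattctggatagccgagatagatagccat
Cav1: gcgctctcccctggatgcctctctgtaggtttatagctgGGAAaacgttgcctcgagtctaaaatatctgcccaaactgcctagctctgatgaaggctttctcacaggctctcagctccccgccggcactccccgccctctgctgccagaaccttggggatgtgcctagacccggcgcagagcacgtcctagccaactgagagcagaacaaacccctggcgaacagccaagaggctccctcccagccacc

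Over the full 300 bases of the table, which run 50 bases past the start, the Igf1 promoter held 9 GGAA motifs on either strand, overlapping matches counted. The 2 Cav1 entries, Nkx2-2, Sox2 and Nr0b1 had 3 each, Id2 had 2 and Prkcb had 0. Of all 32851 promoters listed, 96% held at least 1 GGAA, the median was 3, and 1.59% held 9 or more. The tandem form GGAAGGAA, searched on both strands and overlapping with GGAA, was in 0 of the 8 entries and in 3.79% of all promoters. Of the 8 genes 7 matched the table, all but Gli1. Sox2 had the most CpG dinucleotides of the matched promoters, 27, and Igf1 the fewest, 6, against a median of 7 and an upper quartile of 20 over the table. The promoter of Id2 had 21, Prkcb 19, Nkx2-2 17, Nr0b1 14, and the Cav1 entries 13 and 16. A match to these letters is a description of the sequence and not a binding site.

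No EWS-FLI1 peak lay in any of the 8 windows, with 0 in ES48 and 0 in ES49. In 100 kb tiles laid over the genome, 1.48% held an ES48 EWS-FLI1 peak and 0.964% an ES49 peak, and in tiles of 445 kb, the length of the Prkcb window, 5.7% held an ES48 peak and 3.76% an ES49 peak. At the density of the whole lists a stretch of 1.297 Mb would hold 0.310 ES48 and 0.343 ES49 peaks, so 0 is the number these short lists give at most places, and it is not a result about the 8 genes. The lists name peaks with a score of 50 or more, and binding below that score is not seen in them.

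The nearest EWS-FLI1 peak was 0.538 to 13.9 Mb from the span in ES48 and 1.099 to 53.2 Mb in ES49. The medians over the 8 genes were 5.10 Mb in ES48 and 5.91 Mb in ES49, and those over the midpoints of all 100 kb tiles were 4.44 Mb for ES48 and 4.87 Mb for ES49. The medians of the genes were therefore of the size seen over the genome, while single distances spread widely. Quartiles over tiles were 1.41 and 10.2 Mb for ES48 and 1.88 and 10.8 Mb for ES49. Prkcb, Id2 and Cav1 in ES48 and Nkx2-2 and Prkcb in ES49 lay above the upper quartile. Nkx2-2, Igf1, Nr0b1 and Gli1 in ES48 and Gli1 and Cav1 in ES49 lay below the lower quartile. Gli1 had the same nearest place in both lines. The ES48 peak at chr10:127878847-127879017 scored 87.5, higher than 64% of its list, and the ES49 peak at chr10:127878827-127879141 scored 133, more than 57.7% of its list. They overlap, lie 1.099 Mb above the Gli1 span, and meet H3K27ac of ES48 but not of ES49. Nkx2-2 had the closest peak of all, in ES48, at chr2:147551097-147551275 with a score of 55.5, which 23.6% of the list fell below. The nearest ES49 peak to Nkx2-2 was 11.8 Mb away. For Nr0b1, whose human promoter carries a GGAA repeat bound by the fusion, the nearest peaks were 1.04 Mb away in ES48 and 3.38 Mb away in ES49. For Igf1 the distance was 0.950 Mb in ES48 and 6.68 Mb in ES49, and for Sox2 it was 9.10 Mb in ES48 and 5.77 Mb in ES49. The Id2 span was 12.9 Mb from the nearest peak in ES48 and 6.06 Mb in ES49, and the Cav1 span 12.4 Mb in ES48 and 1.75 Mb in ES49. Prkcb was the farthest in both lines, at 13.9 Mb in ES48 and 53.2 Mb in ES49. The line with the closer peak differed from gene to gene.

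**Figure D1:**
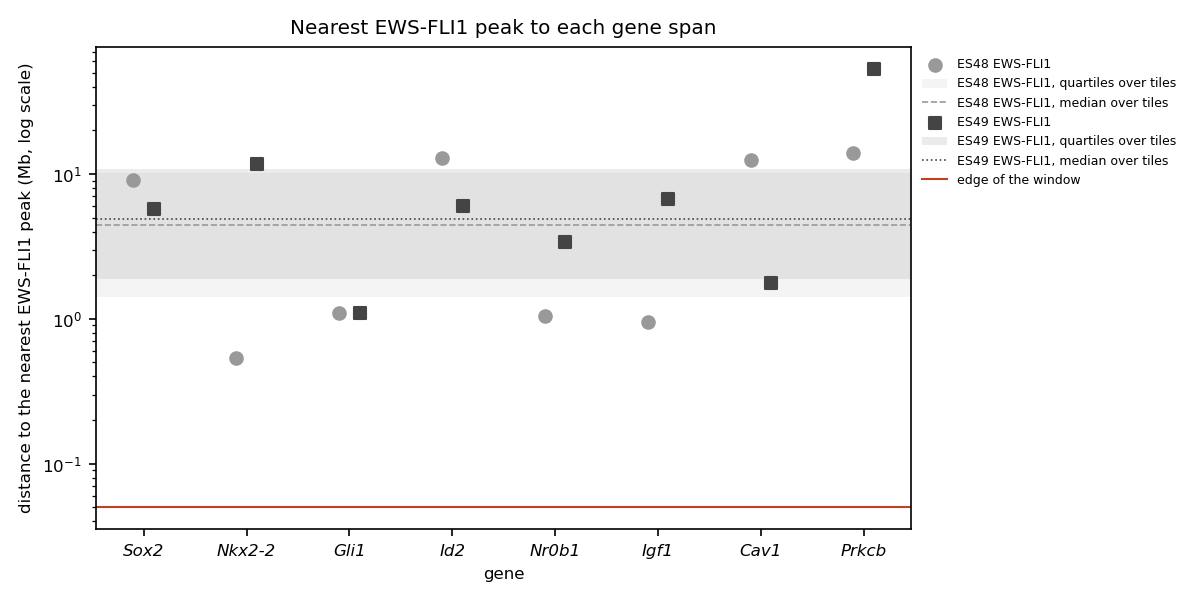
Distance from each gene span to the nearest EWS-FLI1 peak, in Mb on a log axis, in ES48 (circles) and ES49 (squares), 1 library each; bands and broken lines give the quartiles and medians over 100 kb genome tiles. No point comes near the red line at the 50 kb window edge, and the closest is the ES48 peak 0.538 Mb from Nkx2-2.

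The histone marks divided the genes. H3K27ac lay in 5 of the 8 windows in ES48 and in 4 in ES49, and H3K27me3 of ES49 in 6. Sox2, Id2 and Gli1 had H3K27ac in both lines and H3K27me3, Igf1 had H3K27ac in both lines and no H3K27me3, and Cav1 had H3K27ac in ES48 alone and H3K27me3. Nkx2-2 and Prkcb had H3K27me3 and no H3K27ac, and Nr0b1 had no peak of any list. At Prkcb the H3K27me3 was a single peak that scored 50.1, close to the lowest score of the list, 50. Of 100 kb genome tiles, 35.1% held H3K27ac of ES48, 33.3% H3K27ac of ES49 and 13.9% H3K27me3. H3K27ac of both lines was in 4 windows and in 30.2% of tiles, and H3K27ac together with H3K27me3 of ES49 in 3 windows and in 5.89% of tiles. These counts are of presence in the same window or tile, and at Gli1 the ES49 marks shared 0 bp. The closest ES49 H3K27ac peak to the Gli1 span was 16.3 kb away. Gli1 therefore enters both counts with flanks of 50 kb and would enter neither with 10 kb. The windows are longer than the tiles and each holds at least 1 gene, so the shares are not like for like, and no test was made.

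**Figure D2:**
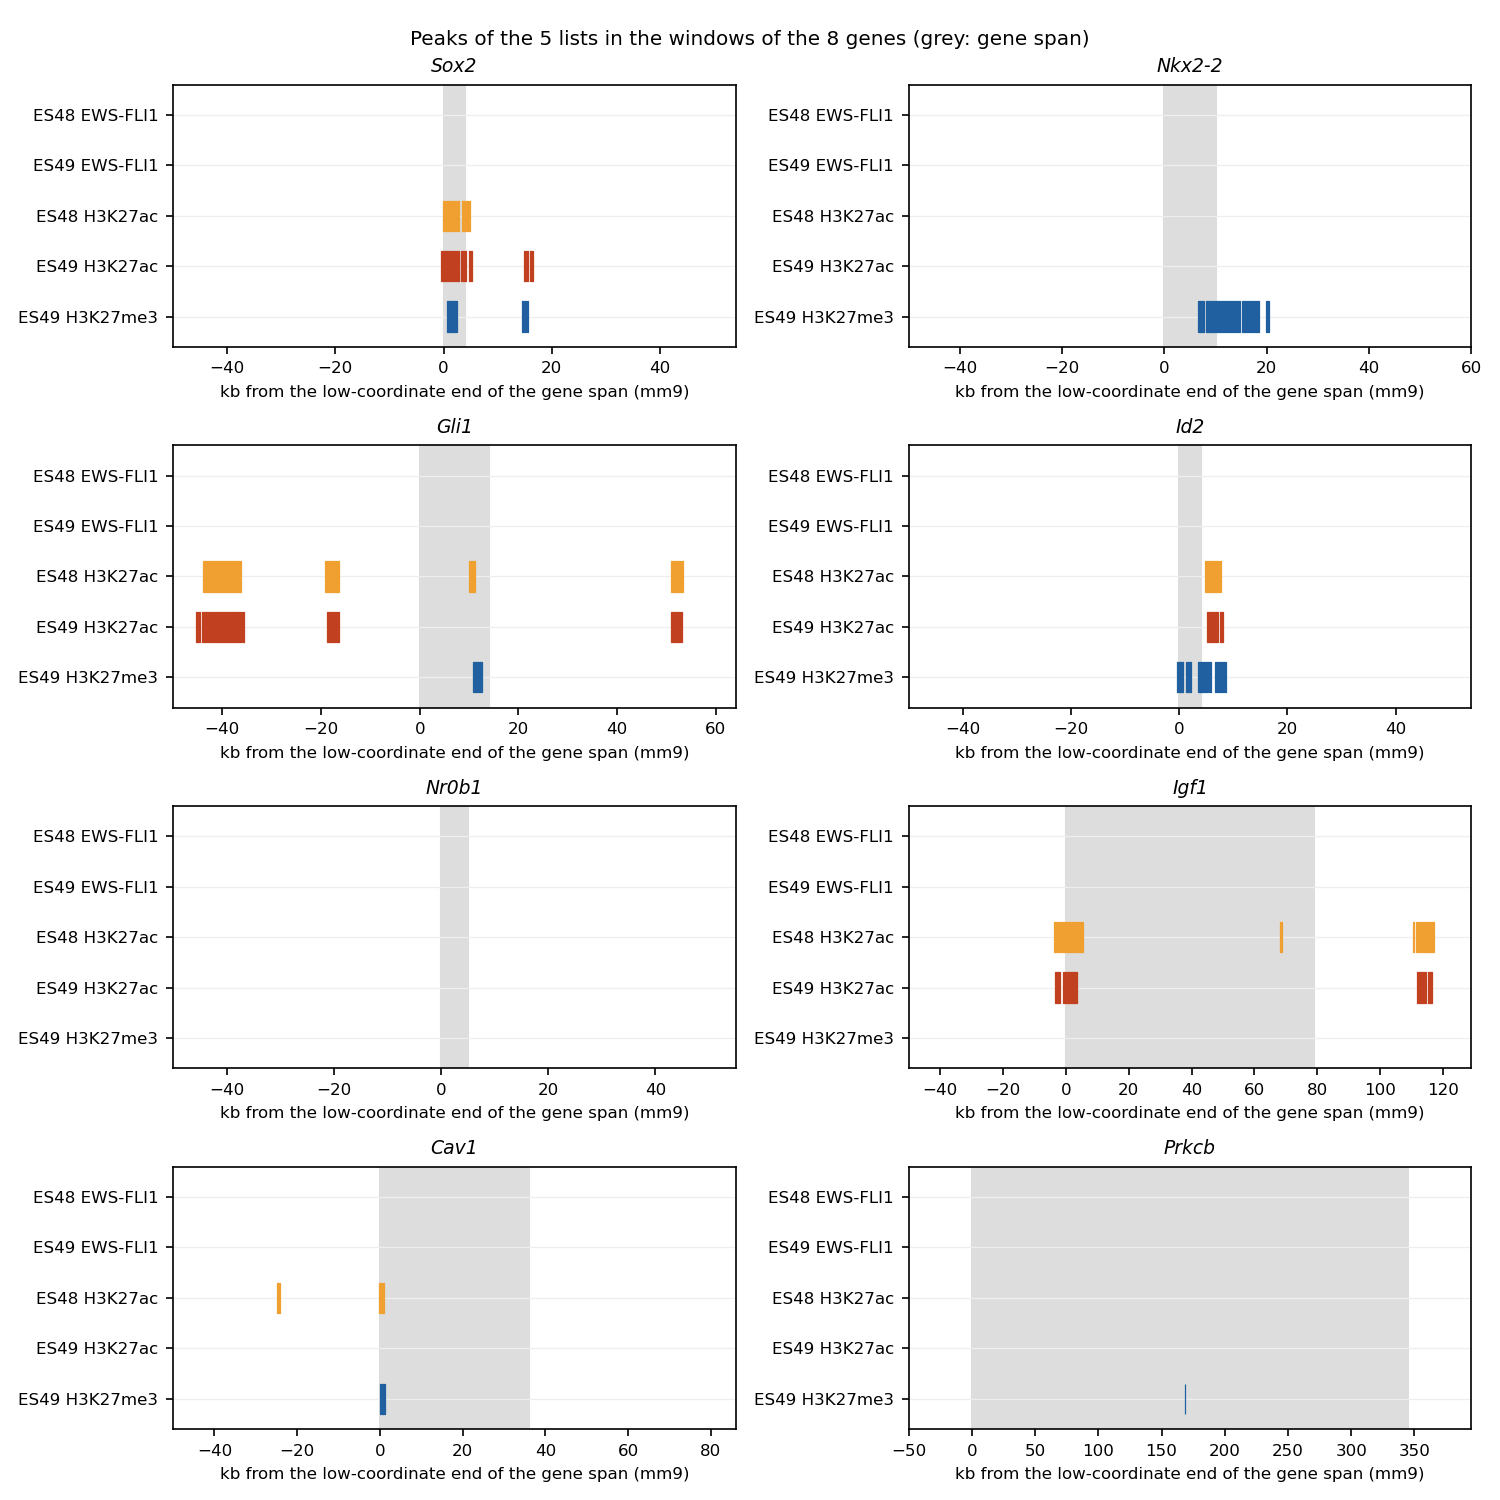
Peaks of the 5 lists in the window of each gene, against kb from the low-coordinate end of the span (grey); each block is 1 peak at its width, with a thin outline so that narrow peaks show. The EWS-FLI1 rows are empty in every panel, Nkx2-2 has H3K27me3 alone, Igf1 has H3K27ac alone, and Nr0b1 has no peak.

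The windows held 18 H3K27ac peaks in ES48, covering 39.2 kb, and 21 in ES49, covering 31.7 kb. They held 19 H3K27me3 peaks of ES49. At the density of the whole lists the same length would hold 13.1 H3K27ac peaks in ES48, 14.9 in ES49 and 9.86 H3K27me3 peaks. Covered length in ES48 was 1.23 times that in ES49, and over the whole lists it was 1.35 times, and with windows of 10 kb in place of 50 kb it was 1.48 times, so the ratio lay below or above that of the lists with the window chosen. The Gli1 window alone held 8 of the 21 ES49 peaks, and without it the counts were 13 in ES48 and 13 in ES49. Median H3K27ac widths in the windows were 1232 bp in ES48 and 762 bp in ES49, against 1475 bp in the whole ES48 list and 838 bp in the whole ES49 list. The median width of H3K27me3 peaks was 652 bp in the windows and 500 bp in the whole list.

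**Figure D3:**
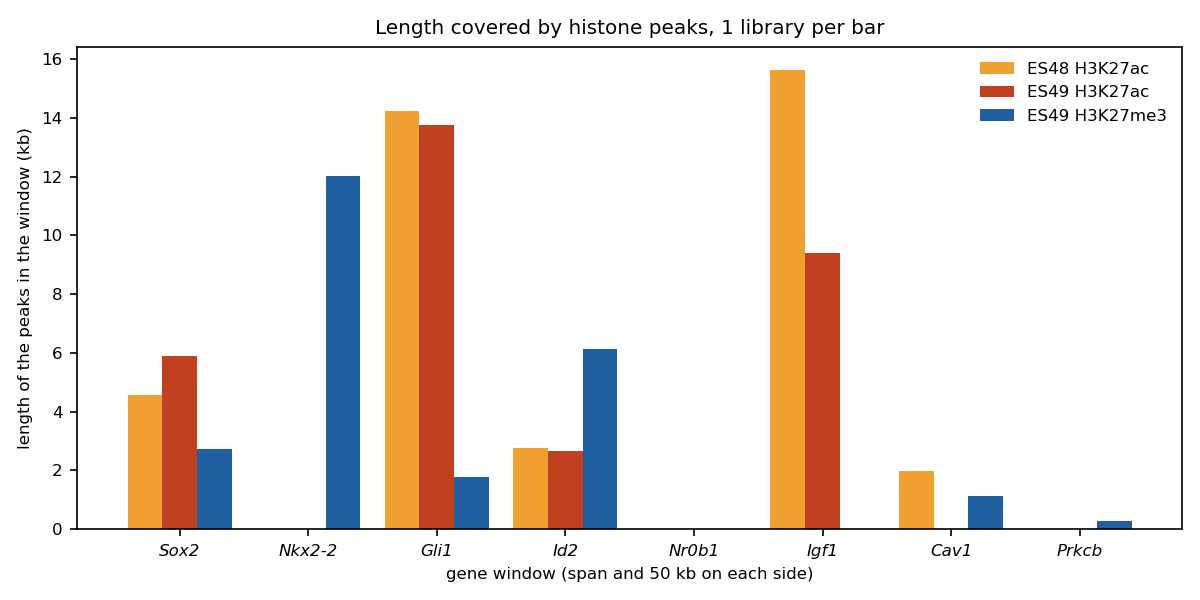
Summed length of the histone peaks in each window, in kb, for ES48 H3K27ac, ES49 H3K27ac and ES49 H3K27me3, 1 library per bar. Igf1 and Gli1 have the longest H3K27ac cover, up to 15.6 kb, and Nkx2-2 the longest H3K27me3 cover, 12.0 kb.

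Sox2 was acetylated along its span in both lines and carried H3K27me3 in ES49 at the same place. In ES48 an H3K27ac peak at chr3:34547909-34550847 was 2939 bp wide and scored 1485, with 66.8% of the list lower. A second at chr3:34551356-34552972 scored 365. In ES49 the main H3K27ac peak, chr3:34547553-34550776, was 3224 bp wide and scored 3100, the value at which the lists level off, and 94.0% of the list scored lower. A further ES49 H3K27ac peak on the span, chr3:34551295-34552195, scored 234. The main peaks of ES48 and ES49 shared 2868 bp and both crossed the low-coordinate end of the span, which is the 5′ side of a gene on the plus strand. ES49 H3K27me3 peaks at chr3:34548705-34549344 and chr3:34549352-34550511 lay wholly inside the main H3K27ac peak of each line. They scored 98.1 and 263, with 55.8% and 84.6% of the H3K27me3 list lower. The marks met again farther out in ES49. There H3K27ac at chr3:34562906-34563667, with a score of 167, overlapped H3K27me3 peaks at chr3:34562507-34563158, with a score of 102, and at chr3:34563345-34563609, with a score of 52.4. This second place, which began 10.5 kb above the span, had H3K27ac in ES49 alone. In ES49 85.3% of the H3K27me3 length of the Sox2 window was also called for H3K27ac. The promoter shown for Sox2 above is the richest of the set in CpG.

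Id2 had a run of H3K27me3 peaks along its span and past its 5′ end, and H3K27ac just beside the span. The 7 ES49 H3K27me3 peaks ran from 25777672 to 25786592 on chromosome 12, over 8.92 kb, of which 6.12 kb was covered, and on the span itself they covered 2105 bp. The strongest, chr12:25784533-25786592, scored 543, with 91.5% of the list lower, and the weakest, chr12:25783445-25783838, scored 50.7. On the span itself lay chr12:25777672-25778067, chr12:25778206-25778761, chr12:25779197-25780132 and chr12:25781401-25781945, with scores of 82.1, 99.5, 254 and 100.3. A further one began 60 bp above the span, at chr12:25782060-25783292, with a score of 269. No H3K27ac peak touched the span in either line. The main H3K27ac peak started 767 bp above it in ES48, at chr12:25782767-25785170 with a score of 1207, and 1113 bp above it in ES49, at chr12:25783113-25785094 with a score of 530. Id2 is on the minus strand, so this is upstream of the gene. Of the ES48 list 63.1% scored lower than the ES48 main peak, and of the ES49 list 69.1% scored lower than the ES49 one. Each line had a smaller H3K27ac peak next to its main peak, with scores of 51.3 in ES48 and 115 in ES49. All 4 H3K27ac peaks overlapped H3K27me3 of ES49. In ES49 29.5% of the H3K27me3 length was also called for H3K27ac, and with ES48 acetylation 31.2% was, a smaller part than at Sox2.

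Nkx2-2 carried the strongest H3K27me3 of the 8 genes and no acetylation. The 4 ES49 peaks ran from 147009540 to 147023423 on chromosome 2, over 13.9 kb, of which 12.0 kb was covered. The widest, chr2:147011040-147017806, measured 6767 bp, scored 2040 and crossed the high-coordinate end of the span, the 5′ side of this minus-strand gene. The highest score, 2591, was that of chr2:147018179-147021579, and 98.3% of the H3K27me3 list scored lower. The others, chr2:147009540-147010817 and chr2:147022854-147023423, scored 523 and 56.5. With neighbouring peaks of the list joined into domains, this one ranked 260 of 4750 by covered length, in the upper 5.47% of the H3K27me3 domains. The closest H3K27ac peaks were 163 kb below the span in both lines. In ES48 it was chr2:146837239-146840349, with a score of 3100 and 80.4% of the list lower. In ES49 it was chr2:146837922-146839795, with a score of 2770 and 92.8% of the list lower. Of 100 kb tiles 7.05% held H3K27me3 and no H3K27ac of either line.

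Gli1 lies in a window rich in H3K27ac, most of it far from the gene. The span had 1 H3K27ac peak in ES48, chr10:126776052-126777157, with a score of 185 that 32.5% of the list fell below, and 0 in ES49. Partly at the same place ES49 had an H3K27me3 peak, chr10:126776865-126778629, which was 1765 bp wide, scored 841 and exceeded 94.0% of its list. The ES48 H3K27ac and ES49 H3K27me3 peaks shared 293 bp. Outside the span the lines looked alike. The peaks with the highest ES48 scores, all 3100, were chr10:126722038-126729865, chr10:126746790-126749722 and chr10:126816831-126818774. Their ES49 counterparts scored up to 3100, the highest being chr10:126724253-126729106. The 3 ES48 peaks lie 16.3 to 36.8 kb from the span. In the RefSeq gene order of GRCm38, Arhgap9 and Mars1 come before Gli1 and Inhbe and Inhbc after it, and the outer peaks were not assigned to a gene. Over the window 86.9% of the ES48 H3K27ac length was acetylated in ES49 and 89.9% of the ES49 length in ES48.

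Nr0b1 had 0 peaks in each of the 5 lists. The closest H3K27ac peaks were 413 kb below the span, at chrX:83021089-83023170 in ES48 with a score of 919 and chrX:83022067-83022817 in ES49 with a score of 272. Of the ES48 list 58.4% scored lower, and of the ES49 list 58.8%. The closest H3K27me3 peak lay 7.09 Mb above the span. Tiles with no histone peak were the most frequent kind, 54.7% of the 100 kb tiles, and the promoter of Nr0b1 held 3 GGAA motifs, the median of the table.

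Igf1 was the one gene of the 8 with H3K27ac on its span in both lines and no H3K27me3 in its window. At the low-coordinate end, the 5′ side of this plus-strand gene, ES48 had an H3K27ac peak at chr10:87320068-87326549, 6482 bp wide with a score of 3100. ES49 had one at chr10:87320081-87324427, 4347 bp wide with a score of 1196, which lay wholly inside the ES48 peak. The 2 peaks held a like place in their own lists, with 80.4% of the ES48 list and 81.7% of the ES49 list lower. Smaller peaks followed upstream, 3 in ES48 with scores of 57.7 to 303 and 2 in ES49 with scores of 87.7 and 268. Joined, they made a domain with 8.93 kb covered in ES48, ranked 953 of 13750, and one with 5.73 kb covered in ES49, ranked 1171 of 13484. These are within the upper 6.93% of domains in ES48 and the upper 8.68% in ES49. A second acetylated place began 31.4 kb above the span in ES48, with a small peak that scored 52.5, and 32.7 kb above it in ES49. In ES48 its highest peak was chr10:87432512-87438240 with a score of 3100, and 80.4% of the list was lower. In ES49 its highest peak was chr10:87432670-87435445 with a score of 1178, and 81.5% of the list was lower. ES48 also had H3K27ac within the gene, at chr10:87389237-87389822 with a score of 88.1, and ES49 had none there. H3K27ac covered 15.6 kb of the Igf1 window in ES48 and 9.42 kb in ES49, a ratio of 1.66, and 99.4% of the ES49 length was acetylated in ES48 while 59.9% of the ES48 length was acetylated in ES49. The closest H3K27me3 peak was 356 kb away, at chr10:86964819-86965116, with a score of 53.2. The Igf1 promoter shown above had the most GGAA motifs of the matched genes and the fewest CpG.

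At Cav1 the lines carried different marks at the same end of the gene. ES48 had H3K27ac at chr6:17255715-17257001, 1287 bp wide with a score of 486, and 48.2% of the list scored lower. ES49 had no H3K27ac peak in the window, and its closest was 289 kb above the span with a score of 50.2. ES49 had 2 H3K27me3 peaks there instead, chr6:17255988-17256653 and chr6:17256852-17257315, with scores of 113 and 103.4. The first lay wholly inside the ES48 H3K27ac peak, and 72.2% of the H3K27me3 length of the window was acetylated in ES48. A peak of each mark crossed the low-coordinate end of the span, the 5′ side of this plus-strand gene. ES48 had a further H3K27ac peak 24.2 kb below, chr6:17231075-17231771, with a score of 127. Cav2 and Tes come before Cav1 in the RefSeq order and Met after it. ES48 has no H3K27me3 list here, so whether the place also carried that mark in ES48 was not tested.

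Prkcb, with the longest span of the 8 genes, had a single weak peak. This was H3K27me3 at chr7:129600560-129600837, inside the gene, 278 bp wide with a score of 50.1, and 0.266% of the list scored lower. The closest H3K27ac peaks were 128 kb below the span in ES48 and 127 kb in ES49, with a score of 3100 in ES48 and 2065 in ES49. Of the ES48 list 80.4% scored lower, and of the ES49 list 89.2%. Of 445 kb tiles, 34.6% held no H3K27ac of either line.

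**Figure D4:**
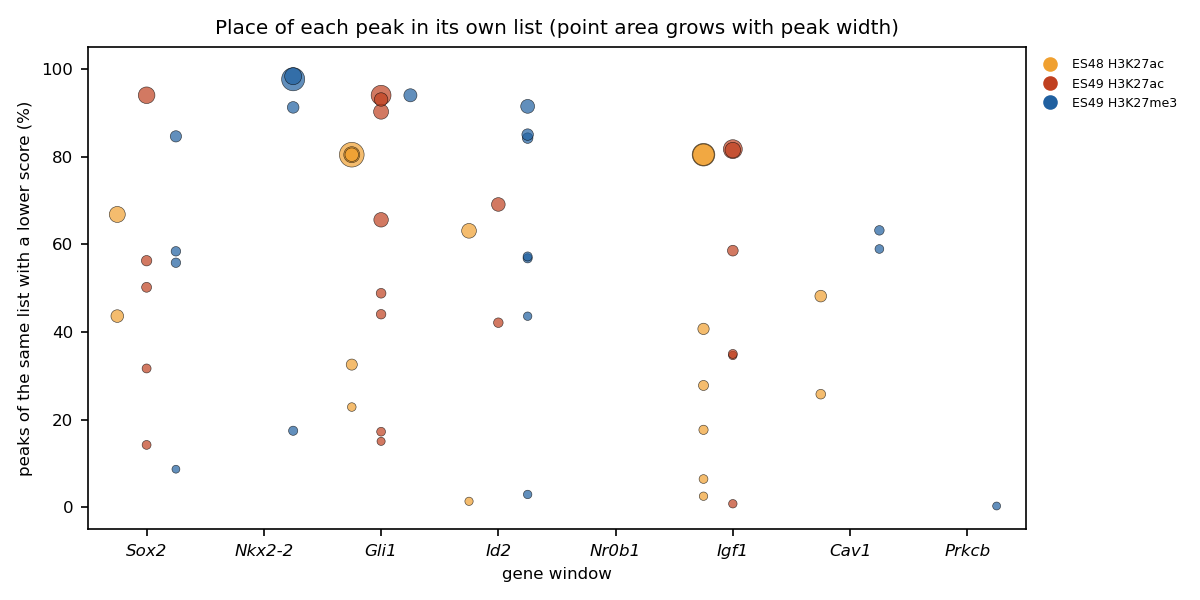
Percentage of peaks in the same list that score lower, for each histone peak in the 8 windows, with point area growing with width; ES48 H3K27ac stops at 80.4% because 19.6% of that list scores 3100 or more. The Nkx2-2 H3K27me3 peaks reach 98.3%, and the Prkcb peak sits at 0.266%.

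Counted by peak, H3K27ac within the windows was mostly common to the lines, as in the lists. In ES48 13 of 18 peaks overlapped an ES49 peak (72.2%, 95% Clopper-Pearson interval 46.5 to 90.3, counting error only), against 66.6% of the whole list. In ES49 17 of 21 overlapped an ES48 peak (81.0%, 58.1 to 94.6), against 68.6% of the whole list. Neighbouring peaks are not independent, so these intervals are too narrow, and whether the shares differ from those of the lists was not tested. The ES49 list cuts some stretches into more peaks. With peaks of both lists joined into regions, 11 of 20 regions (55%) were acetylated in both lines, 5 in ES48 alone and 4 in ES49 alone, and over the genome 47.8% were in both. The ES48-only regions were 2 at Cav1, 2 at Igf1 and 1 at Gli1, and the ES49-only regions 2 at Sox2 and 2 at Gli1. Peaks found in a single line had lower median scores than shared ones. In ES48 the 5 single-line peaks scored 52.5 to 486 with a median of 127, and the 13 shared peaks had a median of 1207. In ES49 the 4 single-line peaks scored 59.2 to 167 with a median of 118, and the 17 shared ones had a median of 268. Shared peaks also scored as low as 51.3 in ES48 and 50.2 in ES49. These medians were not taken over the whole lists, so they are not shown to be a trait of the windows.

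H3K27ac of one line or the other overlapped H3K27me3 of ES49 in 4 of the windows, and within ES49 the marks overlapped in 2. In ES48 5 of 18 H3K27ac peaks overlapped H3K27me3 of ES49, at Sox2, Id2, Gli1 and Cav1, against 1.74% of the ES48 list. In ES49 4 of 21 did, at Sox2 and Id2, against 0.89% of the ES49 list. From the side of H3K27me3, 8 of 19 peaks overlapped ES48 H3K27ac, against 2.9% of the list, and 7 of 19 overlapped ES49 H3K27ac, against 1.49%. These counts come from a few places: the ES49 overlaps come from 2 genes, and peaks of 1 gene are neighbours. Of the 5 ES48 H3K27ac peaks absent from ES49, 2 overlapped ES49 H3K27me3, those at Cav1 and Gli1. The Gli1 peak did so over 293 of its 1106 bp. Of the 13 ES48 peaks also present in ES49, 3 overlapped H3K27me3, at Sox2 and Id2. Over the genome 2.95% of ES48 peaks absent from ES49 overlapped it, and 1.13% of those also present in ES49. Whether both marks were on the same cells or alleles was not tested, nor was any difference of the windows from the lists.

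The choice of 50 kb left few peaks near the edge. The farthest peak inside was ES49 H3K27ac 44.6 kb below the Gli1 span, with a score of 156. The closest outside were H3K27ac peaks 61.2 kb below Gli1 in ES48, with a score of 3100, 61.5 kb below it in ES49, with a score of 1928, and 61.6 kb above Igf1 in ES48, with a score of 389.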

How the data were processed

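ChIP-seq peak lists of EWS-FLI1 and H3K27ac in ES48 and ES49 and of H3K27me3 in ES49 were used, 1 per library. Per the submitters' processing notes, alignment was to mm9 by Bowtie (1.1.1), and SAMtools (1.2) was used. The authors deposited a position, a name and a score for each peak. The names point to a MACS program, and no source used here gives its version, control or settings. The unit of the score is unknown, and scores of different lists were not set against each other.

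Starts were turned to 1-based positions. An overlap was 1 bp or more, and domains were peaks joined across gaps under 12.5 kb. Tiles of 100 kb ran from the first to the last peak of any list on each chromosome. No test was run, since each group is 1 library. The members and lists were chosen with earlier results of these data known. All 8 genes are described. By rule, every H3K27me3 peak is named, and for H3K27ac those on a span and the strongest outside it. The overlap code was checked on simulated intervals. Motifs, strand and gene order come from RefSeq tables of GRCm38.p6, and no position was carried between builds. Software was matplotlib 3.10.9, scipy 1.17.1, pandas 2.3.3, numpy 2.4.6 and Python 3.11.15.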

Additional observations from a re-analysis of the deposited data

How the results depend on the processing

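Of 45 alternative values 29 held and 16 moved, where a count held within 1.5 times the main count, a share held within its main interval, and a length or distance held only if equal. The interval treats neighbouring peaks as independent, so for a share it is a mark for sorting and not a test. EWS-FLI1 peaks stayed at 0 in both lines with windows of 10 and 100 kb and with the higher-scoring 50% of each list. The closest EWS-FLI1 peak to any span was 0.538 Mb away, so these settings could only give 0. They are counted among the 29 and say nothing about how firm the 0 is. H3K27ac peaks numbered 11 in ES48 and 8 in ES49 with windows of 10 kb, and 7 in ES48 and 11 in ES49 with the upper 50% by score. Without the Gli1 window, chosen after seeing the data, the ES49 number was 13. The covered length was 19.2 kb in ES48 and 13.001 kb in ES49 with 10 kb, 43.7 kb in ES48 and 34.9 kb in ES49 with 100 kb, and 30.3 kb in ES48 and 26.6 kb in ES49 with the upper 50%. The shared H3K27ac share was 100% in ES48 with the upper 50%, 100% in ES49 with 10 kb, and 55% of regions joined over both lists, also chosen after seeing the data. The median distance to EWS-FLI1 was 10.8 Mb in ES48 and 15.9 Mb in ES49 with the upper 50%, where 1 gene in ES48 had no peak on its chromosome and was counted as farthest. Distances over genome tiles were taken for the full lists only, so these 2 medians cannot be set against the tile medians. Fewer or more peaks enter by the construction of each setting. The other H3K27ac shares lay within the main intervals, and the numbers of H3K27me3 peaks, of overlaps of the marks and of joined H3K27ac domains stayed within 1.5 times. The places of domains by covered length moved when peaks were joined at 5 kb. Igf1 was then in the upper 4.04% of H3K27ac domains in ES48 and 5.12% in ES49, and Nkx2-2 in the upper 3.39% of H3K27me3 domains.

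No paired analysis was possible because each group has 1 library. Depth is unknown, so weak binding below the listed scores cannot be told from none.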
